A study of Mus musculus with 8 samples.

Results

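The data described here are the microarray signals of 105 class II odorant receptor (OR) genes of mouse chromosome 9, measured in the olfactory mucosa of 4 conditional Emx2 knockouts and 4 control littermates. The genes were taken by symbol, as every gene numbered Olfr829 to Olfr986, pseudogenes left out, that was the single gene named for a transcript cluster, the unit in which this array combines the probes of a gene. They are 105 of the 21789 clusters with exactly 1 gene symbol. The rule itself uses no value of the arrays, though it was set with earlier results of these data known. The RefSeq gene table placed all 105 on chromosome 9 and called 103 of them protein coding, the exceptions being Olfr908, a transcribed pseudogene, and Olfr915. By the receptor family in their synonyms, all 105 belonged to class II, in 27 families. The gene table held 110 genes of this number range. Of the other 5, Olfr884, Olfr885, Olfr951 and Olfr955 were named only on clusters shared with other ORs, and Olfr844 is a transcribed pseudogene not analysed here.

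The study asked whether deleting the homeodomain factor Emx2 in olfactory sensory neurons (OSNs) alters OR mRNA abundance. Total RNA of whole olfactory mucosa was hybridised, with 1 mouse per array, at postnatal day 1 and on a mixed 129 x C57BL/6J background. The 4 knockouts were OmpCre:Emx2(fl/fl), with loxP sites in both Emx2 copies and Cre recombinase inserted into Omp, a gene that OSNs transcribe once mature. Controls 1 to 3 were labelled OmpCre:Emx2(fl/+), a genotype with Cre in which a single Emx2 copy can be lost, and control 4 was labelled Emx2(fl/fl), without Cre. Mice with OmpCre carry a targeted Omp allele in place of a normal one, and by their labels 7 of the 8 mice shared this change and control 4 did not. Floxed Emx2 in cells that have not reached the mature OSN stage, or in other cells of the mucosa, is outside the reach of this driver, and in the study's Cre reporter mice not every OSN recombined. Both sexes were used and neither sex nor litter is given in the labels. Replicate numbers follow accession order, and the spread between mice includes sex and litter.

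Each OSN transcribes a single allele of a single OR gene, so the abundance of an OR mRNA in whole mucosa reflects mainly how many OSNs have chosen that gene, and also how much mRNA each of them holds. Fewer cells expressing a receptor and less RNA per cell cannot be told apart in these samples. Class II ORs are the tetrapod-type receptors, which lie in clusters on many chromosomes and are expressed in zones of the epithelium. Their promoters and enhancers commonly hold homeodomain sites, which Lhx2 and Emx2 can bind, and Olf1/Ebf sites.

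The arrays were first examined as a whole. Emx2 had log2 signals of 10.25, 10.14, 10.34 and 10.14 in knockouts 1 to 4, against 10.83, 10.74, 10.58 and 10.89 in controls 1 to 4. The groups did not overlap, and the difference of -0.55 ± 0.08 (SE), a fold of 0.684, had a limma adjusted p of 0.201. Lhx2, the LIM homeodomain factor of the same neurons, differed by 0.05 ± 0.08. Omp, the marker of mature OSNs and the locus of the Cre insertion, had signals of 12.76, 12.67, 12.91 and 12.60 in knockouts 1 to 4, against 13.43, 12.72, 12.56 and 13.29 in controls 1 to 4. Controls 1 and 4 lay above the 6 other mice. The Omp signal of control 1 thus stood with that of control 4, though by its label control 1 carries the targeted Omp allele. Its Emx2 signal also lay nearest that of control 4. The mean of 23 other mature OSN markers was likewise highest in these mice, at 11.64 in control 1 and 11.60 in control 4. Knockout 3, at 11.58, was close to control 4 in this mean. Whether the label of control 1 is right was not tested. Control 1 remains a control under either genotype, and without it 54 of the 105 receptors had a lower mean in knockouts, with a mean difference of -0.03. The markers of sustentacular cells, the supporting cells of the epithelium, averaged 12.26 to 12.42 in knockouts and 12.31 to 12.42 in controls. Some other marker lists leaned further, where 48.6% of all clusters were lower. Higher in knockouts were 13 of 14 globose basal and dividing cell genes, 9 of 9 cartilage and bone genes and 7 of 7 endothelial genes. Of 16 Bowman gland genes 14 were lower. The per-mouse means of knockouts and controls overlapped in each of these lists. The 3 Y-linked genes measured, of which Eif2s3y had the smallest p (adjusted p = 0.910 by limma), averaged 7.05, 7.27, 10.72 and 7.51 in knockouts 1 to 4, against 8.09, 10.63, 10.53 and 10.57 in controls 1 to 4. Control 2 stood apart on the first principal component, and immune cell markers averaged 8.47 to 8.62 over knockouts, against 9.57 for control 2 and 8.52 to 8.58 for the remaining controls. Control 1 stood apart in the Bowman gland markers. These averaged 12.6 in control 1, against 10.7 to 11.4 in controls 2 to 4 and 10.6 to 11.3 in knockouts. Below, differences are log2 signals of knockouts minus controls, ± is the SE of that difference from limma unless an SD is named, and each group held 4 mice.

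Across the 105 receptors the group difference was small. The mean was lower in knockouts for 62 of them (59.0%), where 48.6% of all tested clusters were lower, and higher for 43. The median difference was -0.02 (0.00 over all tested clusters), and the differences ran from -0.52 for Olfr921, a fold of 0.699, to 0.19 for Olfr877, a fold of 1.14. For 69 receptors the difference was under 0.1 in size, and for 91 it was smaller than the SD between mice within groups. None of the 105 had a limma adjusted p under 0.05, and neither had any of the 21789 clusters (0%). The smallest adjusted p among the receptors was 0.660. At an unadjusted limma p under 0.05, 8 receptors were lower and 0 higher, where 2.55% of all clusters were lower and 2.62% higher. At p under 0.01, 3 were lower and 0 higher, where 0.601% and 0.61% of all clusters were. In 3 receptors every knockout lay below every control, and in 0 every knockout lay above, where 1.48% of all clusters did the first and 1.62% the second. The 3 without overlap were Olfr830, Olfr853 and Olfr914, which were also the 3 at p under 0.01. These counts changed with the arrays used. The 8 became 3 without knockout 4, 4 without knockout 1, control 1 or control 4, and 15 without control 3. Without control 2, the array that stood apart, 61 of the 105 had a lower mean in knockouts and 6 were lower at p under 0.05.

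The mean signal over the 105 receptors was 7.75, 7.85, 7.99 and 7.72 in knockouts 1 to 4, against 7.93, 7.86, 7.70 and 8.01 in controls 1 to 4. Knockout 3 was above 3 of the 4 controls and control 3 was below all knockouts, so the groups overlapped over nearly their whole range. Group means were 7.83 ± 0.12 in knockouts and 7.87 ± 0.13 in controls (SD), a difference of -0.04, a fold of 0.969. The difference was smaller than the SD within either group. Without control 4 it was 0.00058, and without control 3 it was -0.10.

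Mature OSN mRNAs were set beside the receptors, since the number of these neurons can differ between samples. The study itself reports that conditional Emx2 deletion left mature and immature OSN numbers unaffected. A list of mature OSN markers, of which 24 were measured, averaged 11.39, 11.45, 11.63 and 11.47 in knockouts 1 to 4, against 11.72, 11.52, 11.40 and 11.67 in controls 1 to 4. Of the 24, 17 were lower in knockouts and 7 higher, where 48.6% of all clusters were lower. At p under 0.05, 5 were lower and 1 higher, where 2.55% and 2.62% of all clusters were. S100a5, a calcium-binding protein of OSNs, had the smallest p (-0.58 ± 0.12, adjusted p = 0.459 by limma). The 1 higher was Cartpt (0.48 ± 0.12, adjusted p = 0.673 by limma). Knockout 3 was the highest knockout and control 3 the lowest control in this list as in the receptors. Each array was then scaled to the mean of this list, which includes Omp itself. The list's mean difference was -0.09, while the median difference of its 24 genes was -0.04. Scaling to a median, which may give a smaller shift, was not tried. The study's own normalization to mature OSN mRNAs instead used a single factor per comparison and a much larger set of mRNAs. Scaling gave receptor means of 7.89, 7.93, 7.89 and 7.79 in knockouts 1 to 4, against 7.74, 7.87, 7.83 and 7.87 in controls 1 to 4. The SD between mice then was 0.06 in each group, larger than the difference, which turned positive at 0.046. Relative to all tested clusters, whose median moved to 0.09 under this scaling, the receptors' median of 0.07 still lay lower. With it, 29 of the 105 receptors (27.6%) were lower in knockouts, where 13.2% of all clusters were lower. At p under 0.05, 2 receptors were lower and 3 higher, where 0.418% and 4.05% of all clusters were. With Omp left out of the list, an alternative chosen after seeing the data, the mean difference was 0.038 and 30 of the 105 were lower, where 14.8% of all clusters were. The part of mature OSN numbers in the receptor signals was not tested.

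**Figure D1:**
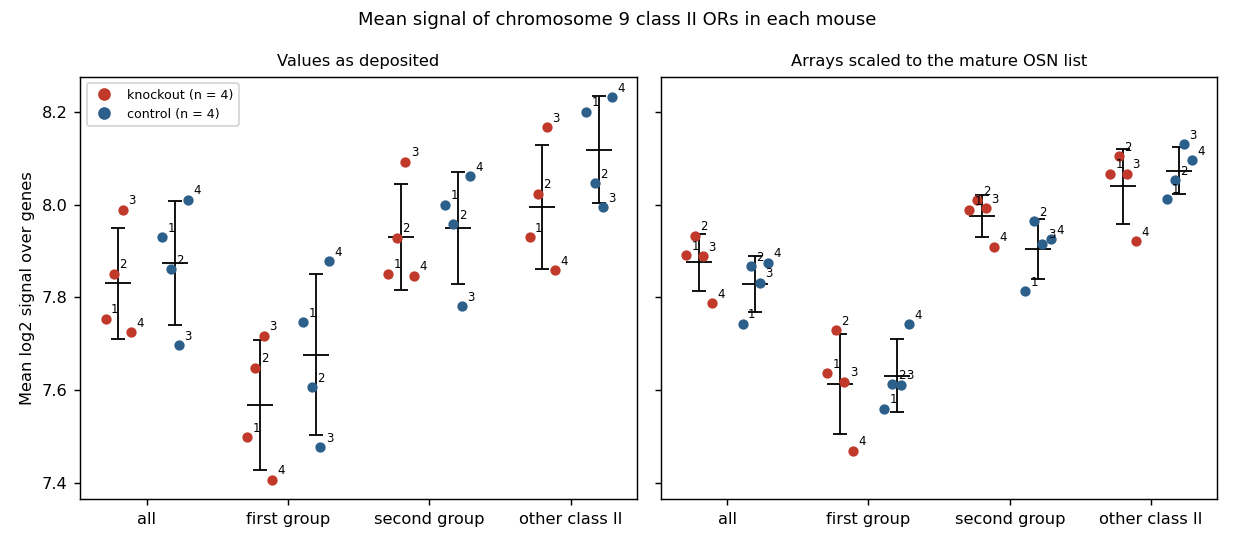
Mean log2 signal over all 105 chromosome 9 class II ORs, over their first and second chromosomal groups and over the 779 other class II ORs, for each knockout (red) and control (blue) mouse, as deposited (left) and after scaling to the mature OSN list (right). Numbers beside points are mouse numbers and bars are means ± SD of 4 mice. As deposited, knockout 3 and control 4 are high and control 3 is low, and the knockouts and controls overlap in every set.

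Most of the variation among these receptors was between individual mice. Of the 105 receptors, 41 had their highest signal in knockout 3 and 35 in control 4, and 40 had their lowest signal in control 3 and 28 in knockout 4. Both groups thus held a mouse in which the receptors were mostly high and a mouse in which they were mostly low. A gene's own mean over the 8 arrays was exceeded by 83 receptors in knockout 3 and 92 in control 4, against 25 in knockout 4 and 15 in control 3. The highest mouse was a knockout for 52 receptors and a control for 53, and the lowest mouse likewise. The range over the 8 mice was 0.498 log2 units in the median receptor, from 0.0661 to 1.38. When each mouse in turn was left out, 29 receptors stayed lower in knockouts every time, 13 stayed higher every time and 63 changed sign at least once.

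**Figure D2:**
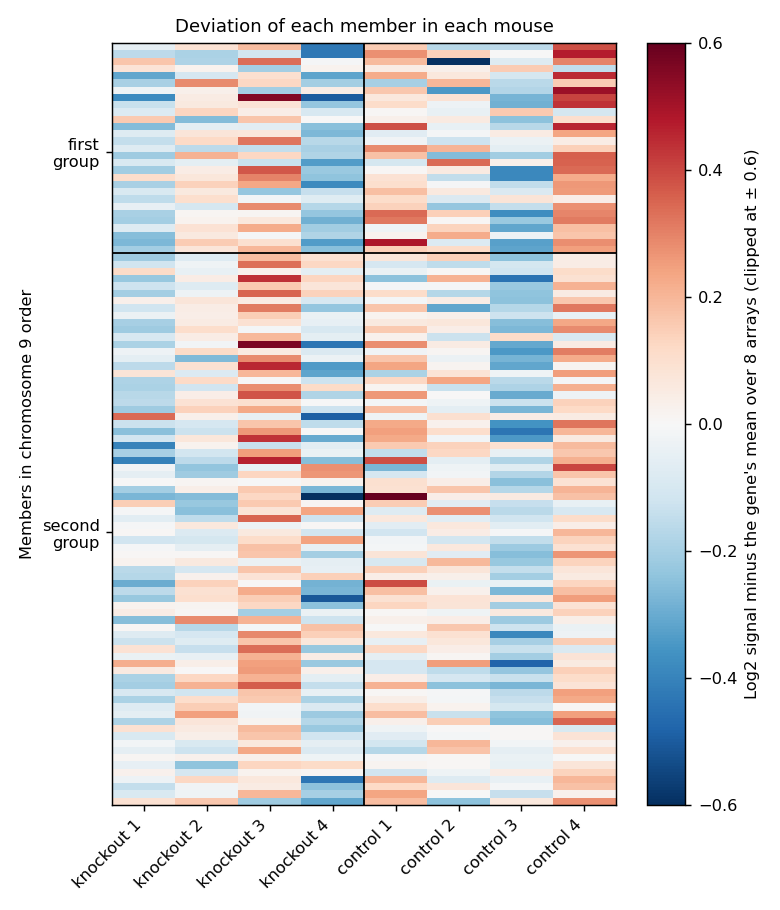
Deviation of each of the 105 receptors (rows, in chromosome 9 order) from its own mean over the 8 arrays, in log2 units, with knockouts 1 to 4 left of controls 1 to 4 and red for above the mean. The columns of knockout 3 and control 4 are mostly red and those of knockout 4 and control 3 mostly blue, and the horizontal line divides the first group of 29 from the second group of 76.

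The receptors were also compared within sets of mice with like Y-linked signal. Among the mice with high Y-linked signal (knockout 3 against controls 2, 3 and 4), 28 of the 105 receptors were lower in the knockout and their median difference was 0.14. Among those with low signal (knockouts 1, 2 and 4 against control 1), 79 were lower and the median difference was -0.13. The per-mouse means of the receptors differed by 0.13 and -0.15 within the 2 sets, and those of the other class II ORs by 0.08 and -0.26. Each set has an arm of a single mouse (knockout 3 and control 1), so these values carry those 2 mice's own levels and were not tested. Only 20 receptors were lower in both sets, and 18 were higher in both. With this Y-linked mean as a covariate, 40 of the 105 (38.1%) were lower in knockouts, where 45.3% of all clusters and 63.3% of the other class II ORs were lower, and the mean difference was 0.01. At p under 0.05, 4 receptors were lower and 3 higher, where 1.36% and 1.81% of all clusters were. Y-linked signal and genotype were not balanced over these arrays, and its part in the receptor signals was not tested further.

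On chromosome 9 the receptors lie in 2 separated groups, with at least 20 other genes between them in the gene table. The first group held 29 of the receptors (Olfr829 to Olfr873) and the second 76 (Olfr874 to Olfr986). In the first group 23 of 29 were lower in knockouts (79.3%), with a median difference of -0.10, 5 at p under 0.05. In the second group 39 of 76 were lower (51.3%), with a median of 0.00 (-0.0041), 3 at p under 0.05. Of the other class II ORs 75.7% were lower, with a median of -0.11, close to the first group. Of all clusters 48.6% were lower, and 2.55% were lower at p under 0.05. Mean signals of the first group were 7.50, 7.65, 7.72 and 7.41 in knockouts 1 to 4, against 7.75, 7.61, 7.48 and 7.88 in controls 1 to 4, a difference of -0.11. Those of the second were 7.85, 7.93, 8.09 and 7.85 in knockouts, against 8.0, 7.96, 7.78 and 8.06 in controls, a difference of -0.02. Knockouts and controls overlapped in both groups. After scaling to the mature OSN list, 16 of 29 in the first group (55.2%) and 13 of 76 in the second (17.1%) were lower, where 13.2% of all clusters and 54.6% of the other class II ORs were lower, and the mean differences were -0.02 and 0.07. The difference between the 2 chromosomal groups was not tested, and over the omission of single mice the count in the first group ran from 16 (without knockout 4) to 26 (without knockout 3) and in the second from 27 (without control 4) to 60 (without control 3).

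**Figure D3:**
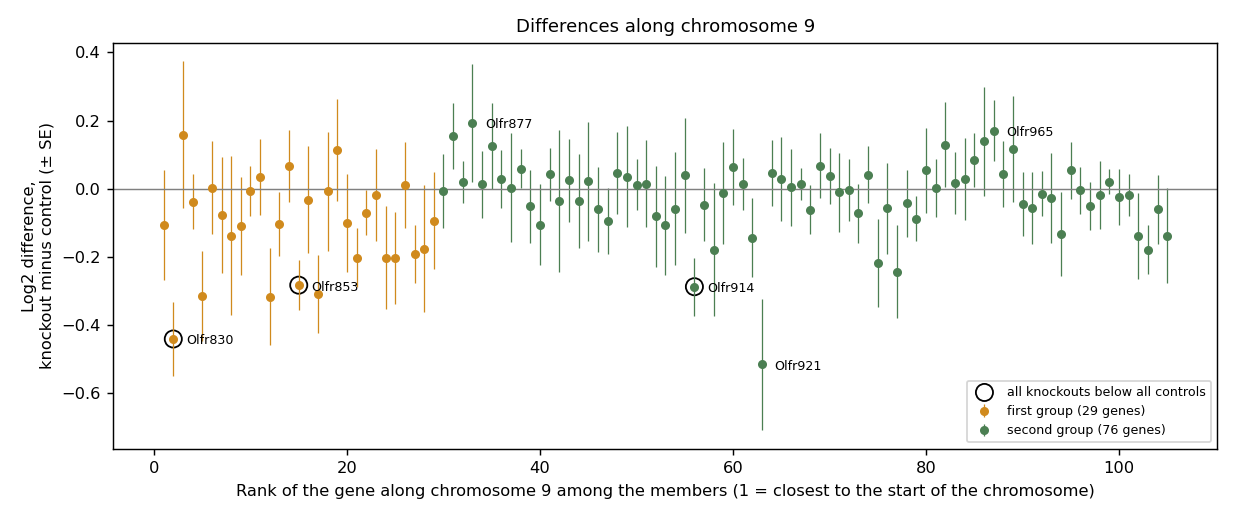
Log2 difference of each receptor, knockout minus control, with its SE, against its rank along chromosome 9 (1 to 105), with the first group in orange and the second in green. Circles mark Olfr830, Olfr853 and Olfr914, in which every knockout lay below every control, and most second-group genes lie within 0.1 of 0.

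The same values were taken for the other ORs on the array. Of the 105 receptors 59.0% were lower in knockouts, with a median difference of -0.02, against 590 of 779 other class II ORs (75.7%), with a median of -0.11. Among these 779, 105 were lower and 3 higher at p under 0.05, where 2.55% and 2.62% of all clusters were. The per-mouse mean differed by -0.04 as deposited and 0.046 after scaling over the 105 receptors, against -0.12 and -0.03 over the other class II ORs. Of 117 class I receptors, 58 were lower, with a median of 0.00. The other class II receptors of chromosome 9, those with numbers outside Olfr829 to Olfr986, were 9 of 20 lower, with a median of 0.01. These sets were compared as counts and medians, and no test was made between them because receptors of the same mice are not independent.

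Olfr830 (family MOR152) had the smallest p among the receptors. Its log2 signals were 7.48, 7.45, 7.53 and 7.21 in knockouts 1 to 4, against 7.91, 7.78, 7.64 and 8.11 in controls 1 to 4. All knockouts lay below all controls, with control 3 the nearest. The difference was -0.44 ± 0.11, a fold of 0.736, with a limma adjusted p of 0.660. It ran from -0.52 to -0.36 when single mice were left out, was -0.35 after scaling to the mature OSN list, and was -0.31 among mice with high and -0.53 among mice with low Y-linked signal.

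Olfr853 (MOR154) lay nearest to overlap among the 3. It had signals of 6.14, 6.06, 6.07 and 6.02 in knockouts 1 to 4, against 6.49, 6.42, 6.15 and 6.35 in controls 1 to 4. The highest knockout and control 3 were almost level, and the other 3 controls were clearly above. The difference was -0.28 ± 0.07, a fold of 0.822, with an adjusted p of 0.739.

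Olfr914 (MOR165), the third, had signals of 7.21, 7.64, 7.48 and 7.55 in knockouts 1 to 4, against 7.77, 7.75, 7.71 and 7.81 in controls 1 to 4. The SD was 0.183 in its knockouts, of which knockout 1 was the lowest mouse, and 0.0414 in its controls. The difference was -0.29 ± 0.09, a fold of 0.819, with an adjusted p of 0.794. Both Olfr853 and Olfr914 stayed lower in every fit that included them, the smallest sizes being -0.19 and -0.20 after scaling.

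Olfr921, of the same family as Olfr914, had the largest difference and also the widest range. Its signals were 7.09, 7.11, 7.49 and 6.75 in knockouts 1 to 4, against 8.13, 7.41, 7.42 and 7.55 in controls 1 to 4. Control 1 was far above the others and knockout 3 lay above controls 2 and 3, so the groups overlapped. The difference was -0.52 ± 0.19, with a limma adjusted p of 0.910. Without control 1 it was -0.35, and among the mice with high Y-linked signal it was 0.03.

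A further 6 receptors with a lower mean made up the 10 with the smallest p. They were Olfr855, Olfr984, Olfr835, Olfr862, Olfr849 and Olfr871, with differences from -0.32 to -0.18 and an adjusted p of 0.910 for each. Olfr855 had signals of 7.54, 7.58, 7.50 and 7.30 in knockouts 1 to 4, against 7.53, 7.98, 7.66 and 7.99 in controls 1 to 4. Only control 1 fell among the knockouts. Of these 6, Olfr862 was the last at an unadjusted p under 0.05 (0.0469) and Olfr849 the first beyond it (0.0532). All 10 were lower in every fit without a single mouse, after scaling and with the Y-linked covariate. A kept sign is likely here, since these 10 were picked by their p in these same arrays. Apart from Olfr914, Olfr921 and Olfr984, they belonged to the first chromosomal group.

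**Figure D4:**
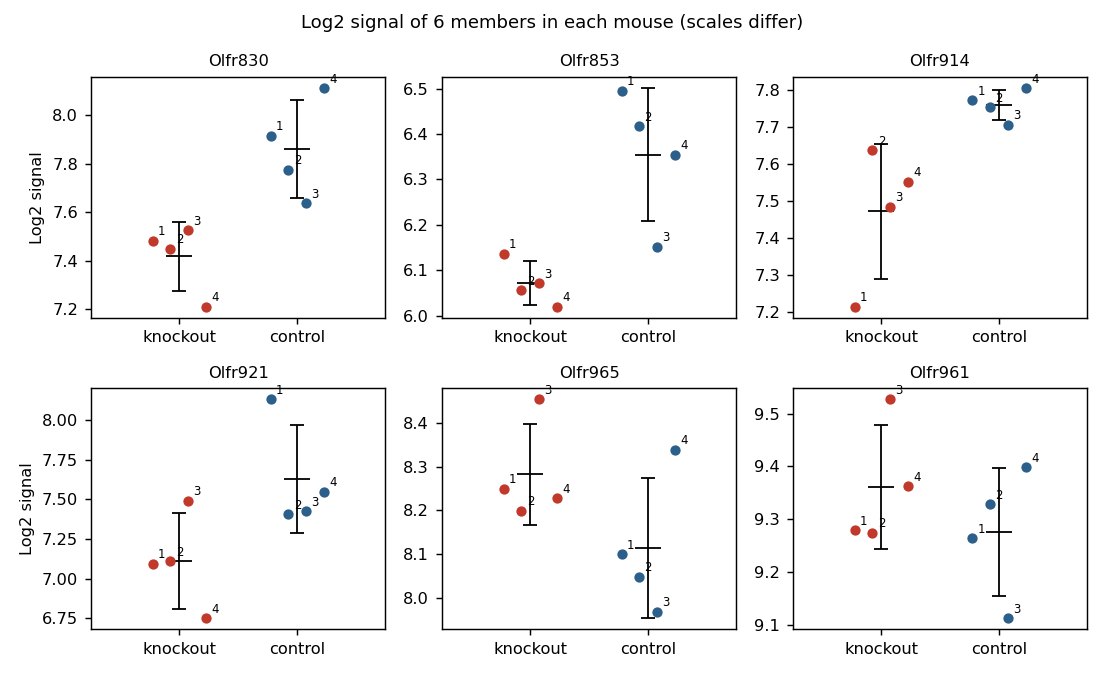
Log2 signals of 6 receptors in each knockout (red) and control (blue), with mouse numbers and bars for mean ± SD of 4 mice, each panel on its own scale. The panels of Olfr830, Olfr853 and Olfr914 show all knockouts below all controls, and those of Olfr921, Olfr965 and Olfr961 show overlapping groups.

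The DNA upstream of these genes is shown to set their homeodomain words beside the expression values. The 250 bases before the start of each RefSeq gene model (GRCm38.p6) are printed for the 3 receptors without overlap, for Olfr869 and for Olfr965. Olfr965 had the smallest p among receptors with a higher mean. Olfr869 was picked by its p and its window together. It had the smallest p among first-group receptors whose window held TAATTA and whose gene model began before the coding sequence. Capitals mark TAATTA or TAATGA on either strand, the second reading TCATTA when it lies on the other strand. The positions are chr9:18875079-18875328 on the + strand for Olfr830, chr9:19537929-19538178 on the - strand for Olfr853, chr9:38606217-38606466 on the + strand for Olfr914, chr9:20128870-20129119 on the + strand for Olfr869 and chr9:39718979-39719228 on the + strand for Olfr965.
Olfr830: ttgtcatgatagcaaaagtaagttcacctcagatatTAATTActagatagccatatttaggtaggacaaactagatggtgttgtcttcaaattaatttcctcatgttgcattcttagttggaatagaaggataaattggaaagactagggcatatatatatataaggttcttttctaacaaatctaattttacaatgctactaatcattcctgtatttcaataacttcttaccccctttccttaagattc
Olfr853: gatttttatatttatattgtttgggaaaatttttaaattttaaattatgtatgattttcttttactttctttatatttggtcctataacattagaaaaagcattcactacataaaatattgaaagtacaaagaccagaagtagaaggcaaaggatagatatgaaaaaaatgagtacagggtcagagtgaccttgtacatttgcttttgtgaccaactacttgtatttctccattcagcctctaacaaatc
Olfr914: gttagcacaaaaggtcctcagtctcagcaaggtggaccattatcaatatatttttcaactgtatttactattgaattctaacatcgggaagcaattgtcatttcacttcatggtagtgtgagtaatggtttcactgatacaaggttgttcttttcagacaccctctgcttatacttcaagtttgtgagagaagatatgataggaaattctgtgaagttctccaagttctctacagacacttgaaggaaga
Olfr869: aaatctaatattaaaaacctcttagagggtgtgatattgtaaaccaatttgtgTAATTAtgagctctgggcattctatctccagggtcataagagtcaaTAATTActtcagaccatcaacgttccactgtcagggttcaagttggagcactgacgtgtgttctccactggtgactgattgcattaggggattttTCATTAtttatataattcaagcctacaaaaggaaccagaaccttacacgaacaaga
Olfr965: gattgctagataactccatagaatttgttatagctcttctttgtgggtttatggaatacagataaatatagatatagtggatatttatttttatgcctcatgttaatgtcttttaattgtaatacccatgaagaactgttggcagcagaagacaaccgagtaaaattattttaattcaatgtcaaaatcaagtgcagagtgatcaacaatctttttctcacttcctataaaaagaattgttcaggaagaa
Of these 5 stretches, those of Olfr830 and Olfr869 held a marked word, 1 in Olfr830 and 3 in Olfr869, and none held CCCNNGGG, an Olf1/Ebf core. A match describes letters, not a bound site, and these windows leave out enhancers and, in many genes, the true start. In 65.2% of the receptors' windows the gene model began at an ATG, against 73.8% for other class II ORs and 5.83% for all genes, so those windows lie before the coding sequence and not before a mapped transcription start.

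Promoter windows of 300 bases (250 before and 50 after the start) were found for 91 of the 105 receptors, 92 windows in all. TAATTA, which reads the same on both strands, was present in 23.9% of them, against 18.7% for other class II ORs and 5.29% of all 32851 windows. TAATGA on either strand was present in 26.1%, against 29.1% for other class II ORs and 9.78% of all windows, and the 2 words may overlap. The Olf1/Ebf core was present in 1.09%, against 3.32% and 13.7%. Between the chromosomal groups the shares were unequal. TAATTA stood in 11 of 25 windows of the first group (44.0%) and in 11 of 67 of the second (16.4%), and TAATGA in 48.0% and 17.9%. TAATTA and TAATGA were not alone in this. TATAAA, the TATA box word, stood in 64.0% and 40.3% of the windows of the 2 groups. It was present in 46.7% of all the receptors' windows, against 40.7% for other class II ORs and 13.6% of all windows. These contrasts were thus not particular to homeodomain words. Among gene models that began at an ATG, 4 of 14 windows of the first group held TAATTA (28.6%) and 10 of 46 of the second did (21.7%). Where the model began before the coding sequence, the counts were 7 of 11 (63.6%) and 1 of 21 (4.76%). Within the first group, 11 of 11 receptors with TAATTA were lower in knockouts as deposited, with a median of -0.11, against 9 of 14 without it, with a median of -0.06. After scaling, Olfr837 (0.014), Olfr854 (0.059) and Olfr866 (0.020) of those with it turned higher, and Olfr846 (0.085) and Olfr867 (0.071) of those without it. Olfr829, Olfr837, Olfr845, Olfr854 and Olfr860 with it, and Olfr843, Olfr846 and Olfr867 without it, also turned higher in some fit without a single mouse. Within the second, 5 of 11 with it and 27 of 55 without it were lower. These are counts over neighbouring and related genes, and no test was made.

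No receptor with a higher mean in knockouts had an unadjusted limma p under 0.05. The smallest p was that of Olfr965 (MOR171), whose signals were 8.25, 8.20, 8.45 and 8.23 in knockouts 1 to 4, against 8.10, 8.05, 7.97 and 8.34 in controls 1 to 4. Only control 4 lay within the range of the knockouts. The difference was 0.17 ± 0.09, a fold of 1.12, with an adjusted p of 0.910, and it ran from 0.11 to 0.24 when single mice were left out. Olfr875 and Olfr877, close by and of the same family (MOR161), differed by 0.15 ± 0.10 and 0.19 ± 0.17, and in both the highest mouse was knockout 3. Olfr958 differed by 0.13 ± 0.12.

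Receptors with known odorants or probes showed no difference beyond the spread. Olfr961 is the ethyl vanillin receptor mOR-EV, and its signals were 9.28, 9.27, 9.53 and 9.36 in knockouts 1 to 4, against 9.26, 9.33, 9.11 and 9.40 in controls 1 to 4. The groups overlapped, with a difference of 0.09 ± 0.08. Olfr963, for which an in situ probe exists in the study, had signals of 8.79, 8.61, 8.81 and 8.35 in knockouts 1 to 4, against 8.47, 8.82, 8.09 and 8.62 in controls 1 to 4, a difference of 0.14 ± 0.16. Its lowest mouse was control 3 and its second lowest was knockout 4. Olfr983, one of several receptors that respond to acetophenone, differed by -0.14 ± 0.13, with knockout 4 the lowest mouse at 7.0 and the other 7 mice between 7.36 and 7.63.

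Receptors of a family are related in sequence and often lie side by side, and the families did not all lean the same way. Of all clusters, 48.6% were lower as deposited and 13.2% after scaling. All 5 MOR145 receptors (Olfr866, Olfr868, Olfr869, Olfr872 and Olfr873) were lower in knockouts, by 0.07 to 0.20, and stayed so without any single mouse, but Olfr866 was higher after scaling. None of the 5 had a p under 0.05. In Olfr869 the signals were 7.63, 7.86, 7.90 and 7.54 in knockouts 1 to 4, against 8.15, 7.84, 7.61 and 8.15 in controls 1 to 4. Controls 1 and 4 were the highest and controls 2 and 3 lay among the knockouts, as they did in Olfr872.

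In MOR165, 6 of 8 were lower, with a mean difference of -0.14 that rests largely on Olfr914 and Olfr921, and 4 of 8 after scaling. In MOR224, the family of Olfr961 and Olfr963, 7 of 8 were higher, by at most 0.14, and all 8 after scaling. Without knockout 3 or without control 3, however, 4 of the 8 were lower. MOR161 had 4 of 5 higher, and all 5 after scaling. Most clusters of the array were higher after scaling too, with 13.2% of all clusters lower.

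The large MOR171 family, with 25 receptors in the second chromosomal group, had 15 lower and 10 higher, and 3 lower after scaling. Its differences ran from -0.24 (Olfr945) to 0.17 (Olfr965), and 0 of 25 had a p under 0.05 in either direction. Its mean signals were 7.97, 8.11, 8.18 and 7.97 in knockouts 1 to 4, against 8.14, 8.07, 7.91 and 8.20 in controls 1 to 4, a spread between mice that exceeded the difference of -0.02. The 5 MOR223 receptors had differences from -0.05 to 0.02, with 4 lower as deposited and 0 after scaling. MOR162 had 4 of 8 lower, MOR170 2 of 5, MOR146 3 of 4 and MOR167 1 of 4, which became 2, 0, 2 and 0 after scaling. These small counts rest on single mice. MOR162 had 2 lower without control 4 and 6 without control 3, and MOR170 had 0 without control 1, 1 without knockout 1, knockout 4 or control 4, and 4 without knockout 3 or control 3. MOR146 had 1 lower without knockout 4, MOR167 had 0 without knockout 1, 2 without knockout 2 and 4 without knockout 3 or control 3, and MOR223 had 1 without knockout 2 and 2 without control 2 or control 4.

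**Figure D5:**
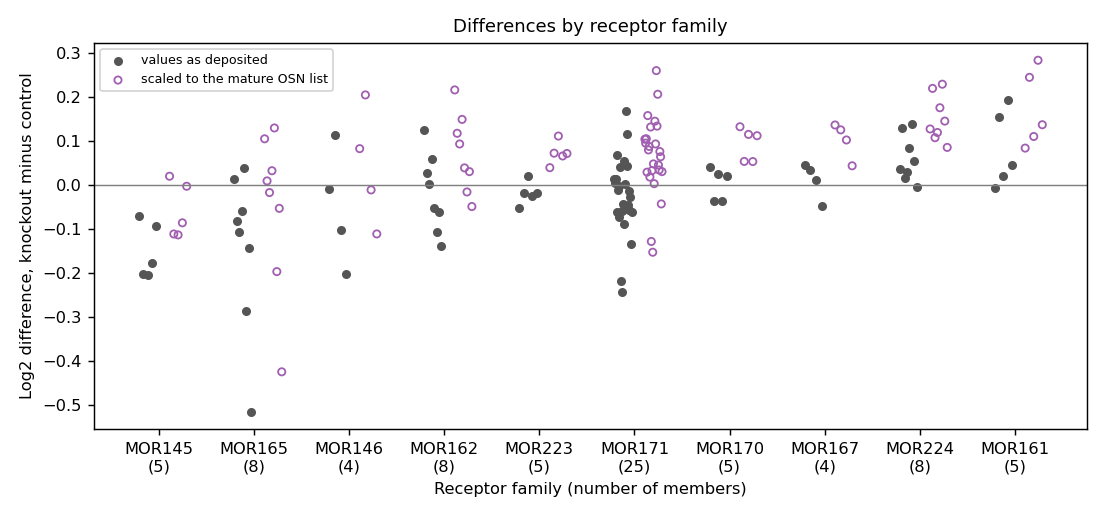
Log2 differences, knockout minus control, of the receptors of each family with at least 4 members, as deposited (filled) and after scaling to the mature OSN list (open), with families ordered by their median difference as deposited. All MOR145 points lie below 0 as deposited, most MOR224 and MOR161 points lie above it, and scaling lifts every point by the same amount.

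The receptors at either end of the signal range differed little. The 5 with the highest mean signal (Olfr948, Olfr923, Olfr867, Olfr972 and Olfr859) had differences from -0.04 to 0.11, and signals between 9.18 and 9.97 in every mouse. The 5 with the lowest (Olfr834, Olfr926, Olfr891, Olfr952 and Olfr908) had differences from -0.09 to 0.04. Olfr834 stood at 3.56 to 3.84 in knockouts and 3.61 to 3.91 in controls, near the lower end of the array's range, which started at 2.65. In Olfr908 the 4 knockouts were spread from 5.23 to 6.06 while the 4 controls lay between 5.69 and 5.81.

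The receptors with the largest SD within groups were Olfr921, Olfr843, Olfr832, Olfr893 and Olfr916. Olfr843 had signals of 8.37, 8.79, 9.30 and 8.24 in knockouts 1 to 4, against 8.81, 8.83, 8.46 and 9.15 in controls 1 to 4, and the highest and the lowest mouse were both knockouts. In Olfr832 the lowest mouse was control 2, at 5.32, with the other 7 between 5.87 and 6.39. Olfr893 and Olfr916 were highest in knockout 3, at 9.73 and 8.12. The groups of all 5 overlapped, and only Olfr921 had a p under 0.05.

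Beside the receptors, 22 genes known to act in OR expression were measured, of which 13 were lower and 9 higher in knockouts. At p under 0.05, 3 were lower, where 2.55% of all clusters were (Emx2, the deleted gene itself, Rtp2, which brings ORs to the cell surface, and Atf5, a factor of the response that stabilises OR choice) and 1 was higher, where 2.62% were (Cbx5, a heterochromatin protein). Only Emx2 had an unadjusted p under 0.01, and none passed adjustment. Olfr151, the receptor M71 of chromosome 9, stands outside the number range and differed by -0.04 ± 0.26. Olfr160, its close relative M72, was named only on a cluster shared with Olfr151 and is not reported.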

How the data were processed

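Olfactory mucosa RNA of 4 knockouts and 4 controls was measured on the Mouse Gene 1.0 ST GeneChip of Affymetrix, 1 mouse per array. The values the authors deposited are log2 signals per transcript cluster. Per the submitters' processing notes, Affymetrix Expression Console was used. Its version and normalization algorithm are not given in the sources used here. Values ran from 2.65 to 14.9 and array medians lay within 0.0391 of each other, and nothing was therefore transformed or normalized again. The small number of arrays limits precision.

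The platform annotation gave gene names, with chromosome, gene order, receptor families and promoter windows from RefSeq tables (GRCm38.p6). Of 35557 clusters, 21789 had exactly 1 gene symbol and were tested, 1621 had several and 12147 were unnamed. For a gene with several clusters the one with the highest mean was to be used, but each of the 105 receptors had 1. Receptors were compared by limma (version 3.58.1, R 4.3.3; lmFit and eBayes, two-sided) with p adjusted by Benjamini-Hochberg over all 21789 clusters (threshold 0.05). Unadjusted p under 0.05 and under 0.01, the study's level, were counted beside it. Means over receptors were not tested. The script was tested on simulated data, with independent values and a change larger than any receptor difference found here. That test does not show how well differences as small as these are found.

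Receptors named were the 10 with the smallest p among those lower and the 5 among those higher, the 5 with the highest and the 5 with the lowest signal, the 5 with the largest SD, Olfr961, Olfr963 and Olfr983, besides Emx2, Lhx2, Omp, Olfr151 and the gene with the smallest p of a list. A few other receptors (Olfr866, Olfr868, Olfr869, Olfr872, Olfr873 and Olfr945), and Rtp2, Atf5, Cbx5 and Cartpt, were named after their values were seen. The receptors, lists and tests were chosen with earlier results of these data known. Alternatives were quantile normalization, scaling to the mature OSN list, the Y-linked signal as a covariate, array weights, only clusters above the median signal, the methods' t-test, leaving out each mouse and, chosen after seeing the data, scaling without Omp.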

Additional observations from a re-analysis of the deposited data

Results flagged for a closer look

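In the controls, Olfr948 had 1 mouse far from the other 3: control 3 stood at a log2 signal of 9.61, with the other controls between 9.90 and 9.95. The gap to the nearest was 0.848 of the whole range, where 0.829 is the critical value for 4 samples. The knockouts stood at 9.84, 9.84, 9.95 and 9.58, so knockout 4 was about as low. This was the 1 case among 72 groups of 4 examined, and chance alone gives such a gap in about 1 in 20 groups.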

How the results depend on the processing

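With the alternatives tried, no receptor passed adjustment in any fit. The 8 receptors lower at p under 0.05 became 2 after scaling to the mature OSN list, 4 with the Y-linked covariate, 0 among clusters above the median signal, 3 by the methods' t-test and 3 to 15 without single mice. The 0 higher became 3 after scaling, 3 with the Y-linked covariate and 0 to 1 without single mice. The 3 lower at p under 0.01 became 1 after scaling, 1 with the covariate, 0 above the median signal, 0 by the t-test and 1 to 3 without single mice. Of the 62 with a lower mean, 29 were counted after scaling and 40 with the covariate, 44 to 84 without single mice, and 5 of the 13 that lie above the median signal. The receptors' mean difference of -0.04 became 0.046 after scaling, 0.0098 with the covariate, 0.022 above the median signal and -0.10 to 0.00058 without single mice. By construction the scaling adds 0.09 to every cluster and the filter on signal leaves fewer receptors; other causes were not tested. Quantile normalization and array weights kept all these counts within 1.5 times, and array weights gave a mean difference of -0.08. Leaving Omp out of the mature OSN list, chosen after seeing the data, gave 3 lower and 2 higher at p under 0.05, 1 lower at p under 0.01, 30 with a lower mean and a mean difference of 0.038.

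Among the receptors named by the rule, sign turned after scaling in Olfr948 (0.048), Olfr867 (0.071), Olfr972 (0.064), Olfr834 (0.053), Olfr952 (0.0031), Olfr908 (0.0094) and Olfr893 (0.054). With Omp left out of the list it turned in Olfr948 (0.040), Olfr867 (0.064), Olfr972 (0.057), Olfr834 (0.045), Olfr908 (0.0018) and Olfr893 (0.046). It turned with the covariate in Olfr867 (0.069), Olfr843 (0.15) and Olfr893 (0.14), and with quantile normalization in Olfr926 (-0.021). Without single mice the difference crossed 0 in Olfr948 (-0.12 to 0.032), Olfr923 (-0.046 to 0.12), Olfr867 (-0.12 to 0.070), Olfr972 (-0.11 to 0.051), Olfr834 (-0.094 to 0.023), Olfr926 (-0.0046 to 0.037), Olfr891 (-0.016 to 0.085), Olfr908 (-0.21 to 0.068), Olfr843 (-0.35 to 0.0062), Olfr832 (-0.058 to 0.28) and Olfr893 (-0.23 to 0.10). Emx2 stayed lower in every fit, between -0.61 and -0.46. Using the lowest-mean cluster per gene or only genes on chromosome 9 changed nothing, since each receptor had 1 cluster and all lie there. No paired analysis was possible because the labels give no replicate numbers or litters. Signals on these arrays carry no counts, so 4 mice a group set the precision.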

Other observations

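Probes of near-identical receptors can be shared, and 6 clusters were annotated to several genes, at least 1 of them in the range Olfr829 to Olfr986. These clusters entered no count above. The cluster of Olfr951 and Olfr954 had signals of 10.11, 10.40, 10.36 and 9.83 in knockouts 1 to 4, against 10.28, 10.17, 10.13 and 10.38 in controls 1 to 4, and the groups overlapped. The cluster of Olfr938, Olfr952 and Olfr955 had 7.71, 7.85, 7.94 and 7.73 in knockouts, against 7.75, 7.79, 7.84 and 7.88 in controls. Olfr26 and Olfr933 shared a cluster with 8.32, 8.16, 8.43 and 8.08 in knockouts, against 8.18, 8.12, 8.11 and 8.12 in controls. A cluster of 8 genes around Olfr881 to Olfr901, with Olfr983, had 9.01, 9.20, 9.35 and 9.04 in knockouts, against 9.18, 9.24, 8.63 and 9.25 in controls, and a cluster of 7 of the same genes likewise had its lowest value in control 3 (8.47). The last, of Olfr150 and Olfr919, differed by -0.05. Over these 6 clusters the differences ran from -0.06 to 0.11, within the range of the receptors measured alone. The receptors that also appear on a shared cluster, among them Olfr919, Olfr933, Olfr938, Olfr952, Olfr954 and Olfr983, are uncertain to the extent that probes are shared.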
